A study of Mus musculus with 11 samples.

Results

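The genes described here are the protein components of the cytosolic ribosome in mouse distal colon. They were chosen by symbol alone among the genes listed in the data: Rpl or Rps with a number and at most 1 letter (a, x, l, y or k) and further digits after it, or Rpsa, Rplp0, Rplp1 or Rplp2, leaving out pseudogenes and the Rps6k kinases. The rule found 82 genes among the 22243 genes listed. By symbol, 50 were counted with the large ribosomal subunit (Rpl) and 32 with the small subunit (Rps). The study asked how loss of neuregulin-4, a growth factor that activates the receptor ErbB4, alters gene expression in the colon. RNA was measured in 6 wild-type (WT) mice and in 5 mice carrying the homozygous Nrg4 knockout (KO, Nrg4-/-), with 1 library per mouse. Both genotypes shared 3 cages from the age of 9 weeks and were dissected at 11 to 12 weeks. There were 2 mice of each genotype in cage A and in cage B, while cage C had 2 WT animals beside a single KO animal. Males and females were used, and the labels give no sex for any mouse. The labels give neither the strain nor the Nrg4 sequence that the knockout removes. The tissue was the whole thickness of the wall, so mucosa and muscle were measured together. In such bulk samples fewer cells of a type and less RNA per cell cannot be told apart.

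The cytosolic ribosome reads messenger RNA in its small subunit and joins amino acids in its large subunit, and each subunit is built in the nucleolus from ribosomal RNA and one copy of most of its proteins. Ribosomal protein genes are among the most strongly transcribed genes of proliferating tissues such as the intestinal crypt. Their messenger RNAs begin with a cytosine followed by an unbroken run of pyrimidines, the TOP (terminal oligopyrimidine) motif, through which the kinase complex mTORC1 and the RNA-binding protein LARP1 control their translation and stability. Because translation of TOP messenger RNAs can change without a change in their abundance, RNA levels alone do not measure ribosome production.

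The start of the transcript is the feature these genes are best known for, so 6 starts are shown to let a reader see it. RefSeq transcript starts (build GRCm38.p6) were matched by symbol for 62 of the 82 genes. At 13 of the 62, or 21.0%, the annotated first base was a cytosine followed by at least 4 pyrimidines, against 3.01% of 27025 annotated genes. Each line gives 30 bases of the transcribed strand, 10 before the annotated start and 20 from it. The capitals mark the run of pyrimidines that begins at the start, which was 5 to 13 bases long over the 13 genes. The genes are Rpl14 (chr9:120571507-120571536, plus strand), Rpl28 (chr7:4792955-4792984, plus strand), Rpl35 (chr2:39005112-39005141, minus strand), Rps6 (chr4:86857348-86857377, minus strand), Rps10 (chr17:27635225-27635254, minus strand) and Rps27 (chr3:90213629-90213658, minus strand).
Rpl14: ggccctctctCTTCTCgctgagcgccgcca
Rpl28: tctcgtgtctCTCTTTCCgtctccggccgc
Rpl35: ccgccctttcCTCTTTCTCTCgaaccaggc
Rps6: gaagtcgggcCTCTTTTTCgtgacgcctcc
Rps10: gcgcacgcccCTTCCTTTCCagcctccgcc
Rps27: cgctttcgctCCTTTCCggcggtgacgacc
In all 6 the run continues upstream of the annotated start for at least 1 base, so a start a few bases off would leave or remove a match. Other short words were counted around the same starts as a description. On the transcribed strand, from 50 bases before to 50 bases after the start, CTTTCC was found in 29.0% of the 62 matched genes against 5.43% of all genes, and CTCTTTC, which can overlap it, in 19.4% against 1.62%. From 250 bases before to 50 bases after the start, searched on both strands, CCGGAAG, the core bound by ETS factors, was found in 41.9% against 9.93%. AAGATGGC, the core of the YY1 motif, was found in 9.68% against 3.19% in that same window. TATAAA within the 50 bases before the start was found in 1 of the 62 genes, or 1.61%, against 3.15% of all genes. These matches are letters in a window and not binding measured in these mice.

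The values are in TPM, an abundance per transcript that is divided by transcript length and scaled to the library, and were summed over the listed transcripts of a gene. Comparisons between mice rest on that scaling. The listed TPM summed to 558446 (KO-1) to 770986 (KO-3), and whether the columns were rescaled before deposit is not known here. TPM keeps no read number, so sequencing depth per library cannot be read from the table and counting intervals are left out. In the authors' deposited table, the mean natural log of the estimated count corresponded to a median of 1964 estimated counts per ribosomal protein transcript, from 3.95 to 19162, against 121 over all transcripts. The libraries held epithelial and smooth muscle markers: 6 pan-epithelial markers summed to 4803 to 7781 TPM and the 5 listed smooth muscle markers to 2565 to 5137 TPM over the mice. Mitochondrially encoded genes took 19.0% to 42.9% of the listed TPM, and KO-3 was the mouse at the upper end. The targeted gene was at 0 TPM in every mouse, WT included, and cannot be used to check the genotype labels.

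The ribosomal protein genes were abundant in every mouse and spread over more than 3 orders of magnitude. Averaged over the 11 mice, 35 of the 82 exceeded 1000 TPM, 33 lay between 100 and 1000 TPM, and 14 were below 100 TPM. Of the 100 most abundant genes in these libraries 37 were ribosomal protein genes. The median level was 885 TPM, with 715 TPM for the large subunit genes and 1051 TPM for the small subunit genes. The large subunit genes include Rpl3l, Rpl10l and Rpl39l, at or near 0 TPM, which lower their median. Over the 79 genes tested below, which leave these out, the median was 918 TPM. The 5 most abundant were Rpl41, Rps29, Rplp1, Rpl26 and Rps14, and together they took 17.9% of the TPM of all 82.

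Rpl41 encodes one of the shortest proteins of the cell, a peptide of the large subunit. Its level was 3359, 3678 and 4422 TPM at the lowest, median and highest WT mouse, and 3208 (KO-1), 3446 (KO-3), 3496 (KO-4), 4207 (KO-8) and 3227 TPM (KO-9) in KO. Rps29, a zinc-binding protein of the small subunit, ran from 2392 to 3257 TPM in WT with a median of 2911, and was at 2663, 2482, 2780, 3162 and 3153 TPM in KO-1, KO-3, KO-4, KO-8 and KO-9. Rplp1, an acidic protein of the stalk that recruits elongation factors, ran from 2341 to 3292 TPM in WT with a median of 2856, and was at 2516, 2692, 2728, 2835 and 3032 TPM in the same order of KO mice. For these 3 genes the WT and KO ranges overlapped over most of their width. Rpl26 averaged 2189 ± 139 TPM in WT (SD, n = 6) against 2255 ± 183 TPM in KO (SD, n = 5), and Rps14 averaged 2181 ± 223 and 2076 ± 127 TPM.

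**Figure D1:**
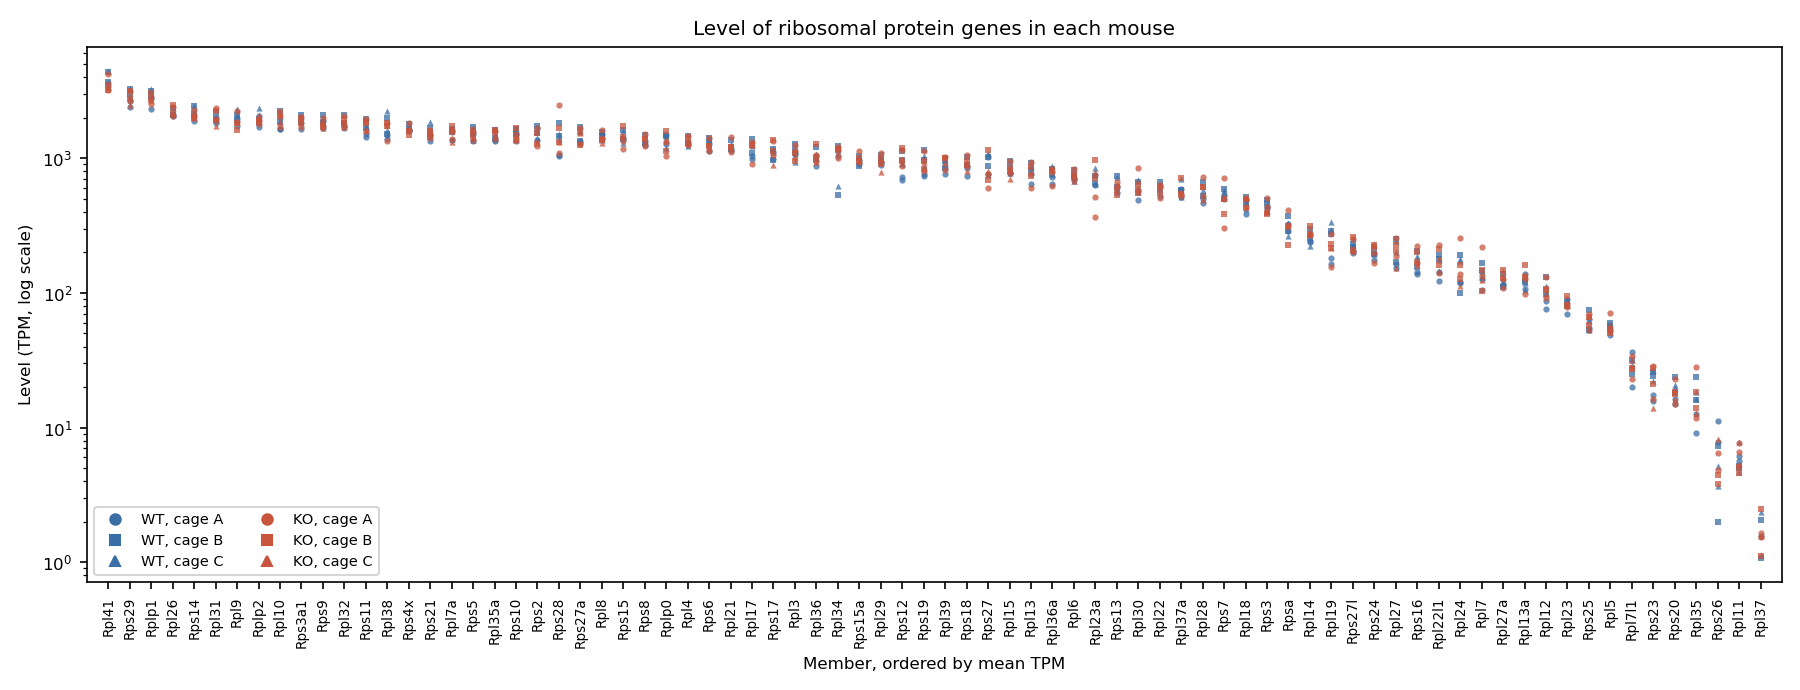
Level in TPM (log axis) of 78 of the 79 tested ribosomal protein genes, ordered by mean level, with 1 point per mouse coloured by genotype and shaped by cage. WT and KO points lie on top of each other from Rpl41 down to Rpl37, and Rpl37 in WT-5, at 0 TPM, has no place on the log axis.

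At the low end stood genes whose proteins are as necessary to the ribosome as the others. Rpl37 averaged 1.36 ± 0.836 TPM in WT against 1.67 ± 0.496 TPM in KO (SD, n = 6 and 5). Rpl11, which with Rpl5 and the 5S ribosomal RNA binds the p53 inhibitor Mdm2 when ribosome assembly fails, averaged 5.77 ± 1.14 TPM in WT against 5.89 ± 1.27 TPM in KO. Rpl5 was higher, at 55.7 ± 4.08 and 56.9 ± 7.99 TPM. There were 6 tested genes below 20 TPM, among them Rpl37, Rpl11, Rps26, Rpl35 and Rps20. Their most abundant listed transcripts were 681 to 3706 nt long, with a median of 890.5 nt, while those of the 35 genes above 1000 TPM were 371 to 1538 nt long with a median of 637 nt. The table lists only transcripts marked principal, and for 75 of the 82 genes the most abundant listed transcript shared at least 1 run of 31 bases with an unlisted transcript of the same gene in GENCODE M21. Reads of such runs can be assigned to a transcript outside the table. Such sharing was not particular to the low genes. The share of runs found in no other transcript had a median of 54.2% for the 6 genes below 20 TPM. For the 35 genes above 1000 TPM that median was 6.52%. The part this sharing has in the low values was not tested.

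Sequence was also shared between genes. The most abundant listed transcript shared at least one 31-base run with a transcript of another gene for 81 of the 82 genes, and more than 50% of its runs for 53 of them, with a median of 58.3%. Processed copies of ribosomal protein genes are common in mammalian genomes, so levels of single members are uncertain where reads can be split between copies.

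The summed level of the 82 genes overlapped between the genotypes. It was 68445 TPM in the lowest WT mouse, 75610 at the WT median and 85916 in the highest, and 69542 (KO-1), 73423 (KO-3), 75926 (KO-4), 84136 (KO-8) and 79098 TPM (KO-9) in KO. The means were 76882 ± 6221 TPM in WT (SD, n = 6) against 76425 ± 5551 TPM in KO (SD, n = 5), and every KO mouse lay inside the WT range. As a share of the listed TPM the genes took 12.1% ± 0.842 in WT and 11.6% ± 1.40 in KO, with the lowest share, 9.52%, in KO-3, the mouse with the largest mitochondrial share. Leaving the mitochondrially encoded genes out of the total gave 16.1% ± 1.18 in WT and 16.3% ± 0.534 in KO, and 16.7% in KO-3. The ratio of large to small subunit TPM varied little, from 1.26 to 1.31 over the 11 mice, with a coefficient of variation of 1.53% against 7.35% for the sum itself. A shift common to both subunits in a mouse cancels in this ratio, and no ratio of other gene sets was set beside it.

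**Figure D2:**
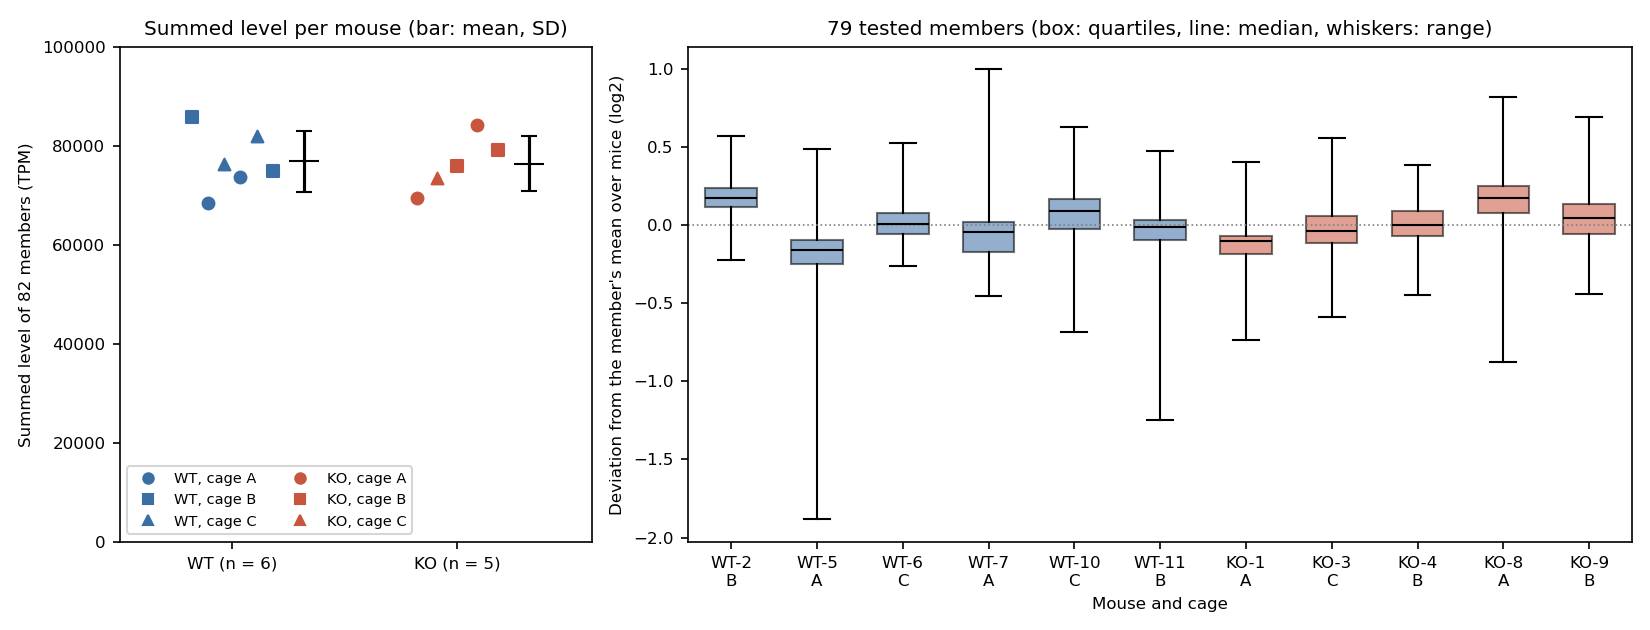
Left, summed TPM of the 82 genes in each mouse with the mean and SD of each genotype; right, the deviation of each of 79 tested genes from its own mean over the mice, on the log2(TPM + 0.5) scale, as a box per mouse. The sums run from 68445 to 85916 TPM in WT against from 69542 to 84136 TPM in KO, and the boxes of WT-2 and KO-8 lie highest and that of WT-5 lowest.

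No ribosomal protein gene differed between KO and WT beyond the spread between mice. A gene was tested if it reached 1 TPM in at least 5 mice, which held for 79 of the 82 genes, while Rpl3l, Rpl10l and Rpl39l did not reach it. Differences are changes in log2(TPM + 0.5) from WT to KO with their standard error, from a limma fit of all 10756 tested genes that held cage as a term. At an adjusted p (Benjamini-Hochberg) below 0.05, 0 of the 79 genes passed, against 0.0372% of all genes. At an unadjusted p below 0.05 the count was also 0, against 3.1% of all genes, and the smallest unadjusted p was 0.0944, that of Rps12. The authors' deposited table gives 121 transcripts of 79 of these genes a p-value from sleuth; 0 have a q-value below 0.05, against 0.0339% of all transcripts, and 2 have a p-value below 0.05, against 2.24%. The WT and KO values overlapped for all 79 genes, while 0.223% of all genes had groups that did not.

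The fitted differences were small and lay on both sides of zero. They ran from -0.22 to 0.42, and 77 of the 79 were smaller than 0.25 in either direction, against 8970 of all 10756 genes. Of the 79, 47 were above zero and 32 below, and over all genes 46.8% were above zero. The median was 0.01 over the 79 genes and -0.01 over all genes. At 100 TPM or more, 58.8% of 68 ribosomal protein genes were above zero with a median of 0.01, against 36.5% of the 602 other genes with a median of -0.03. Among large subunit genes 32 of 47 were above zero with a median of 0.02, and among small subunit genes 15 of 32 with a median of -0.01. The 95% confidence interval of a gene reached a median of 0.23 to each side, against 0.36 over all genes. Over the 602 other genes at 100 TPM or more that median was 0.24. The interval lay wholly within 0.5 of zero for 66 of the 79 genes, against 5964 of all 10756 and 498 of those 602. For 78 of the 79 it lay within 1 of zero, against 9502 of all 10756 and 596 of those 602. A difference of 2-fold therefore lay outside the interval of 78 of these genes, and smaller differences were not detectable with this number of mice for those with wide intervals. The exception was Rpl37, whose interval ran from -0.46 to 1.30.

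**Figure D3:**
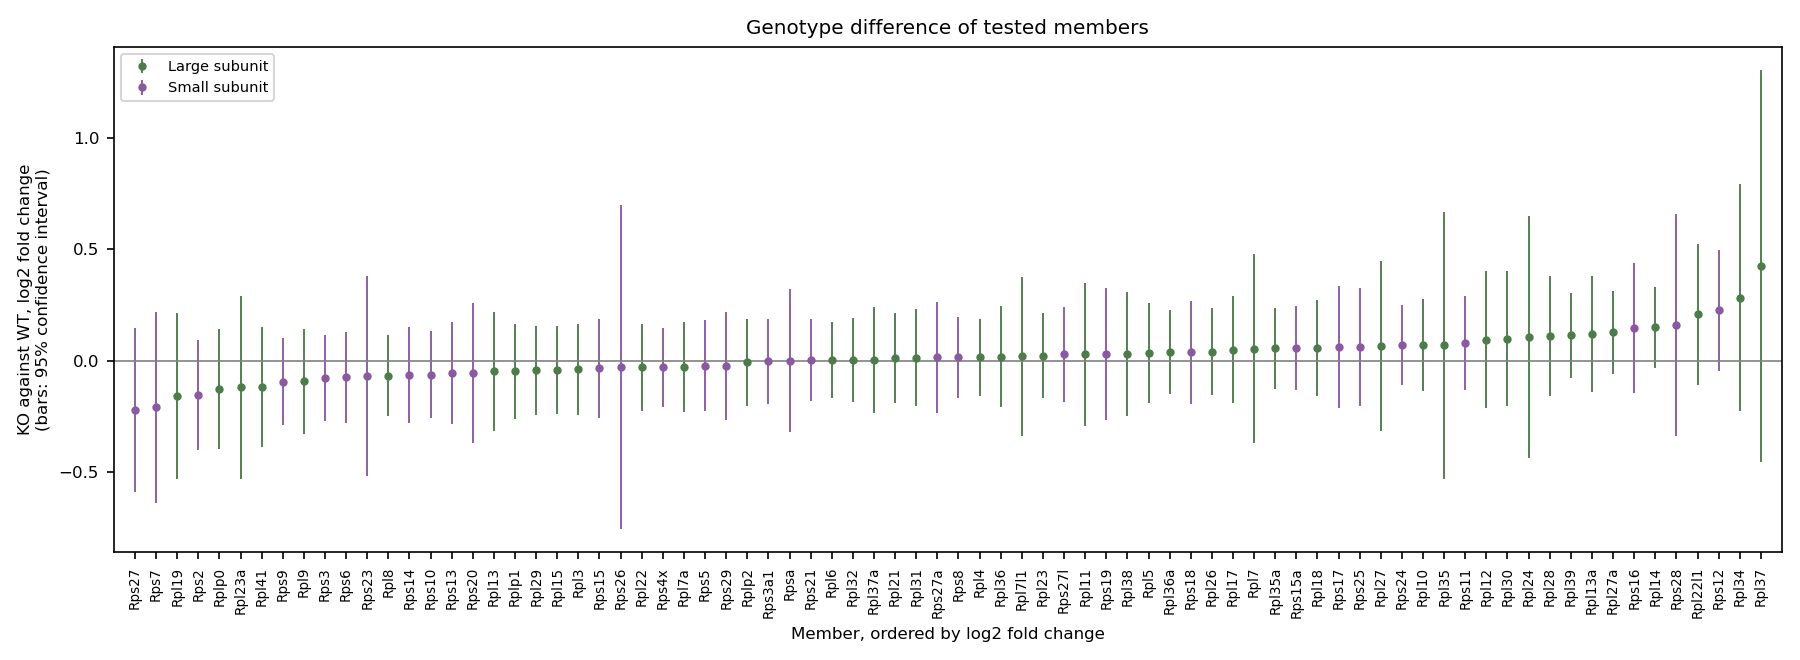
Log2 fold change of KO against WT of 78 of the 79 tested genes, ordered by size and coloured by subunit, with 95% confidence intervals from the limma fit. All intervals include zero, and the points run from -0.22 for Rps27 to 0.42 for Rpl37.

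Among large subunit genes, Rpl14 had the smallest p. Its level was 223 TPM in the lowest WT mouse, 250.5 at the median and 299 in the highest, and 271, 291, 269, 275 and 312 TPM in KO-1, KO-3, KO-4, KO-8 and KO-9, a difference of 0.15 ± 0.08 with an adjusted p of 1.00 by limma with Benjamini-Hochberg adjustment. The KO mice lay in the upper part of the WT range and above it. Rpl27a averaged 121 ± 10.8 TPM in WT against 131 ± 15.5 TPM in KO, with a fitted difference of 0.13 ± 0.08. Rpl39, whose small protein lines the tunnel through which the new chain leaves, averaged 888 ± 79.7 and 954 ± 83.9 TPM, with a fitted difference of 0.11 ± 0.09. Neither of these passed, and the adjusted p was 1.00 for each member in this fit.

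Rpl34 had a wide spread that came from 2 WT mice. Its level was 537 TPM in WT-11 and 624.5 TPM in WT-10, while the other WT mice ran from 1035 to 1243 TPM and the KO mice were at 1007, 1097, 1143, 1208 and 1163 TPM in KO-1, KO-3, KO-4, KO-8 and KO-9. The fitted difference was 0.28 ± 0.23. The low values were in the main transcript, Rpl34-202, at 485 TPM in WT-11 and 571 TPM in WT-10, while its other listed transcript, Rpl34-201, was at 52.4 and 53.1 TPM in these mice and 34.2 to 57.9 TPM over all 11. The 2 mice came from different cages, B and C.

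Among small subunit genes, Rps12 had the smallest p of the set. Its level was 685 TPM in the lowest WT mouse, 913 at the median and 1139 in the highest, and 877, 981, 1193, 1158 and 947 TPM in KO-1, KO-3, KO-4, KO-8 and KO-9, a difference of 0.23 ± 0.12. The groups overlapped over most of their range. The main transcript of the gene, Rps12-203, differed by less, 0.09 ± 0.10, and the gene also has the minor transcript Rps12-208, which differed by 3.19 ± 1.02. Rps2, a protein at the entry of the messenger RNA channel, averaged 1557 ± 142 TPM in WT against 1414 ± 193 TPM in KO, a difference of -0.15 ± 0.11. Rps27, a zinc-finger protein of the small subunit, averaged 921 ± 144 and 799 ± 210 TPM, a difference of -0.22 ± 0.16, and KO-9 at 1149 TPM was above every WT mouse while KO-8 at 598 TPM was below every one.

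The genes with the least scatter around the fit were Rpl4, Rps4x and Rpl6. Rpl4, which shapes the narrowest stretch of the exit tunnel, averaged 1323 ± 77.5 TPM in WT against 1344 ± 84.2 TPM in KO, with a residual standard deviation of 0.09 on the log2 scale. Rps4x averaged 1684 ± 78.2 and 1646 ± 116 TPM, and Rpl6 732 ± 47.5 and 741 ± 57.8 TPM. The genes with the most scatter were Rpl37, Rps26 and Rpl35, with residual standard deviations of 0.73, 0.61 and 0.51, and all 3 were below 20 TPM. The authors' technical variance, the spread of the natural log of the estimated count when reads are resampled, was 0.279, 0.585 and 0.0183 for them. The median over the ribosomal protein transcripts was 0.00229. The part of this technical variance in the scatter was not tested. Over genes at 100 TPM or more, the median residual standard deviation was 0.15 for 68 ribosomal protein genes and 0.18 for 602 other genes.

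The 13 genes with a pyrimidine run at the annotated start were set beside the other matched genes. Their median fitted difference was 0.03, with 8 of 13 above zero, and that of the other 46 tested genes with a matched start was 0.02, with 29 of 46 above zero. The split follows the annotated first base, and messenger RNAs of the 46 can also begin with a TOP motif. It therefore cannot set TOP messenger RNAs against others. Rps6, whose protein is phosphorylated by the kinases that mTORC1 activates, averaged 1316 ± 111 TPM in WT against 1241 ± 109 TPM in KO. Rpl28, Rps10 and Rpl35 from the same group had fitted differences of 0.11 ± 0.12, -0.06 ± 0.09 and 0.07 ± 0.27.

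Below the level of genes, 133 listed transcripts belong to the 82 genes: 49 genes have 1, and 33 have several, up to 5. In a limma fit of every transcript, added after the table was seen, 0 of 120 tested ribosomal protein transcripts passed with Benjamini-Hochberg adjustment, against 0.0331% of 12067 transcripts, and 2 had an unadjusted p below 0.05, against 3.46%. These 2 were Rpl29-202 and Rps12-208. Rpl29-202 was at 84.8, 21.5, 17.6, 56.9, 23.3 and 49.7 TPM in WT-2, WT-5, WT-6, WT-7, WT-10 and WT-11, and at 91.3 TPM in KO-1, 0.140 TPM in KO-8 and at or near 0 in KO-3, KO-4 and KO-9. Thus 4 of the 5 KO mice were below every WT mouse and the fifth was above every one, with a fitted difference of -4.81 ± 1.25, an unadjusted p of 0.00353 and an adjusted p of 1.00. Rps12-208 was at 121, 2.94, 25.5, 4.0, 0.0746 and 47.1 TPM in the WT mice in that order and at 120, 48.9, 234, 157 and 89.7 TPM in KO-1, KO-3, KO-4, KO-8 and KO-9. Its fitted difference was 3.19 ± 1.02, with an unadjusted p of 0.0116 and an adjusted p of 1.00.

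Both were minor transcripts of genes whose totals overlapped between the genotypes. Rpl29-202 made up 3.28% of the Rpl29 TPM, which summed to 962 ± 55.2 TPM in WT against 948 ± 112 TPM in KO, and Rps12-208 made up 8.09% of the Rps12 TPM. They share most of their sequence with the other listed transcripts of their gene, 94.6% of the 31-base runs of Rpl29-202 and 90.5% of those of Rps12-208. In the authors' deposited table their technical variance, the spread of the natural log of the estimated count when reads are resampled, was 2.17 and 1.40, against a median of 0.00229 over the ribosomal protein transcripts. The log2 ratios of mean TPM, KO to WT, in that table were -1.21 for Rpl29-202 and 1.96 for Rps12-208. Both are smaller in size than the fitted differences, which average logs, so that mice near 0 TPM weigh heavily. The authors' p-values from sleuth for the 2 transcripts were 0.000872 and 0.0111, with q-values of 1. These are the 2 ribosomal protein transcripts with a p-value below 0.05 there too. The part of this technical variance in the 2 differences was not tested.

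**Figure D4:**
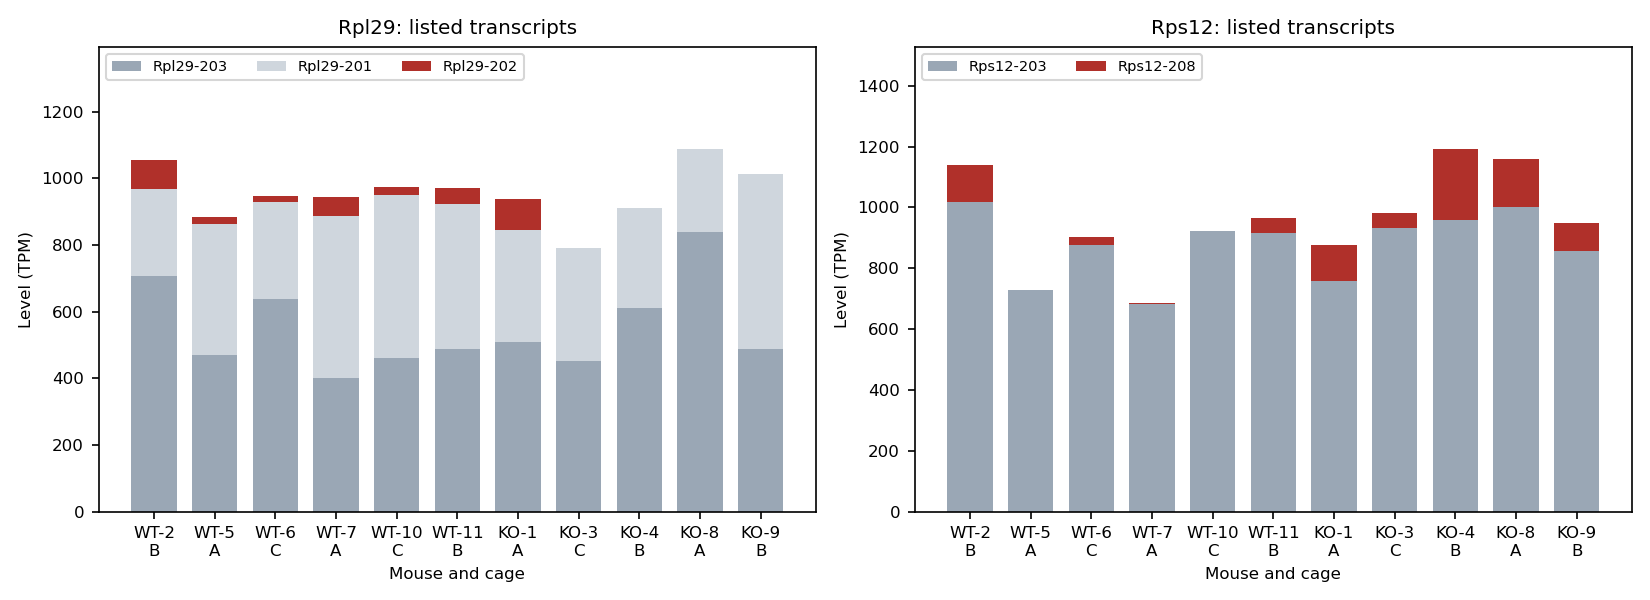
TPM of each listed transcript of Rpl29 (left) and Rps12 (right), stacked per mouse, with the cage letter under each mouse and the transcripts with a genotype p below 0.05 in red. Rpl29-202 reaches 91.3 TPM in KO-1 and is at or near 0 in the other 4 KO mice, and the bar totals overlap between the genotypes.

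Cage gave no call either. The cage F test of limma called 0 of the 79 genes with Benjamini-Hochberg adjustment, against 0% of all genes, with a smallest adjusted p of 0.418, and 0 had an unadjusted p below 0.05, against 12.1% of all genes. The fitted level was lower in cage A than in the mean of cages B and C for 61 of the 79 genes, or 77.2%, against 46.4% of all genes and 60.1% of the other genes at 100 TPM or more. The median difference was -0.08 on the log2 scale over the 79 genes, against 0.03 over all genes and -0.05 over those other abundant genes. KO-8, from cage A, went the other way and was among the highest mice. Summed TPM of the Y-linked genes Ddx3y, Kdm5d, Uty and Eif2s3y was 32.4 to 41.7 in the 4 mice of cage A and at most 0.236 in the other 7, so cage A and sex cannot be told apart.

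The genes with the smallest cage p were Rps24, Rpl19, Rpl36a and Rpl23a, and each was lowest in cage A on average. Rps24, a small subunit protein needed to process the precursor of the small subunit's RNA, averaged 184 ± 15.0 TPM in the 4 mice of cage A, 212 ± 14.9 TPM in the 4 of cage B and 218 ± 19.9 TPM in the 3 of cage C. Rpl36a averaged 701 ± 77.5, 808 ± 30.4 and 827 ± 58.4 TPM in cages A, B and C. Rpl19, which reaches across to the small subunit, averaged 195 ± 55.2, 252 ± 32.9 and 281 ± 60.5 TPM. For all 3 the ranges of cages A and B overlapped.

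Dependence of the genotype difference on cage was put to the F test of the cage-by-genotype terms. It called 0 of the 79 genes, against 0.0186% of all genes, and 1 gene, Rpl23a, had an unadjusted p below 0.05, against 3.97% of all genes. Rpl23a, which sits at the tunnel exit where the signal recognition particle docks, was at 519 and 367 TPM in the KO mice of cage A (KO-1 and KO-8) and at 631 and 758 TPM in its WT mice (WT-5 and WT-7). In cage B its KO mice were at 719 and 973 TPM (KO-4 and KO-9) and its WT mice at 734 and 656 TPM (WT-2 and WT-11). In cage C the KO mouse KO-3 was at 792 TPM and the WT mice WT-6 and WT-10 at 639 and 844 TPM. The KO mice were thus below the WT mice in cage A and overlapped them in cages B and C, with an unadjusted p of 0.0485 and a limma adjusted p of 1.00. The next smallest interaction p-values were 0.0622 for Rpl27, 0.0662 for Rps23 and 0.0944 for Rpl7, each with an adjusted p of 1.00.

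Many genes of the set shifted together from mouse to mouse. Relative to each gene's mean over the 11 mice on the log2 scale, the median deviation of the 79 genes was 0.17 in both WT-2 and KO-8 and -0.16 in WT-5. In WT-2, 73 of the 79 genes were above their own mean, and in KO-8 70 were, while in WT-5 only 5 were and in KO-1 only 10, with a median deviation of -0.10. KO-8 held the highest value of 28 genes and WT-2 that of 17, and WT-5 held the lowest of 27 and KO-1 that of 15. The high pair thus held 1 mouse of each genotype, and so did the low pair.

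The other abundant genes of the same libraries moved with the set in KO-8, WT-5 and KO-1 and not in WT-2. Over the 602 other genes at 100 TPM or more, the median deviation was 0.09 in KO-8, -0.10 in WT-5 and -0.10 in KO-1, and -0.01 in WT-2. WT-2 was also the mouse with the largest share of ribosomal protein TPM among nuclear genes, 18.3%. B-cell markers, which differed widely between the mice, summed to 49.0 TPM in WT-2, 82.5 in KO-1, 3.55 in WT-5 and 1.48 in KO-8, and T-cell markers to 7.77, 52.1, 2.27 and 2.48 TPM. The cycling crypt cell markers summed to 126 TPM in WT-2, the lowest of the 11 mice, 172 in KO-1, 193 in KO-8 and 210 in WT-5, the highest. The part of these cells in the levels was not tested.

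Several ribosomal proteins have a paralog, another gene of the same family. Rpl3l, the striated-muscle counterpart of Rpl3, and Rpl10l, the testis counterpart of Rpl10, were at 0 TPM in all 11 mice, and Rpl39l was at 0 TPM in all but KO-9, where it was at 0.297 TPM. Their partners Rpl3, Rpl10 and Rpl39 averaged 1098, 1933 and 918 TPM over the mice. Rpl22l1, expressed beside Rpl22, ran from 123 to 190 TPM in WT with a median of 161, and was at 142, 182, 211, 226 and 162 TPM in KO-1, KO-3, KO-4, KO-8 and KO-9. The fitted difference was 0.21 ± 0.14. Rpl22l1 made up 20.8% ± 2.79 of the TPM of the pair with Rpl22 in WT and 23.8% ± 3.30 in KO (SD, n = 6 and 5), with overlapping ranges. Rps27l, a p53 target, made up 19.7% ± 3.09 of its pair with Rps27 in WT and 22.8% ± 5.66 in KO, and Rpl7l1, which acts in ribosome assembly, 17.8% ± 4.59 and 17.3% ± 4.95 of its pair with Rpl7. The most abundant listed transcripts of these 3 pairs share no 31-base run within the pair.

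Nrg4 lies on chromosome 9 (55220222 to 55326844, minus strand, mm10), so the members on that chromosome were looked at on their own. There are 7 ribosomal protein genes on that chromosome, the nearest being Rplp1 at 6.59 Mb, Rpl4 at 8.85 Mb, Rps25 at 10.8 Mb and Rps27l at 11.6 Mb, and then Rpl29, Rpsa and Rpl14 at 51.1, 64.8 and 65.2 Mb. Their fitted differences ran from -0.05 ± 0.10 for Rplp1 to 0.15 ± 0.08 for Rpl14. Rps25 averaged 60.3 ± 8.31 TPM in WT against 62.9 ± 7.49 TPM in KO, and Rpsa, which also serves as a laminin receptor, 312 ± 39.6 and 317 ± 66.6 TPM. None of the 7 passed the test.

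Ribosomal proteins whose symbols fall outside the rule also overlapped between the genotypes. Fau, which encodes a ribosomal protein fused to a ubiquitin-like protein, averaged 713 ± 155 TPM in WT against 702 ± 105 TPM in KO. Rps27a, a ubiquitin fusion within the rule, averaged 1471 ± 172 and 1467 ± 188 TPM. Rack1, a scaffold on the small subunit, averaged 694 ± 50.7 TPM in WT against 659.9 ± 97.5 TPM in KO, and Rpl36al 448 ± 25.8 and 429 ± 60.9 TPM. None of them passed.

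Genes that make, regulate or depend on the ribosome were set beside it in lists. In either direction 0 members of any list passed, against 0.0372% of all genes. Of 20 tested translation factors and other proteins encoded by TOP messenger RNAs, 8 had fitted differences above zero and 12 below, with a median of -0.01. Hnrnpa1 had the smallest p of that list, with 13.4 ± 1.34 TPM in WT against 6.32 ± 4.65 TPM in KO. The KO mice ran from 0.0446 TPM in KO-9 to 12.4 TPM in KO-8. Of 19 other initiation factors, 4 were above zero and 15 below with a median of -0.05. Eif2s2, the beta subunit of the factor that brings in the initiator tRNA, averaged 334 ± 66.0 TPM in WT against 272 ± 46.7 TPM in KO. Eif6, which keeps the subunits apart, averaged 101.2 ± 10.03 and 81.5 ± 33.7 TPM. For Eif6, KO-8 at 138 TPM was above every WT mouse, and the other KO mice, at 56.8 to 87.7 TPM, were below every one. The median over all genes was -0.01, with 46.8% above zero. The 13 mitochondrially encoded genes were all above zero with a median of 0.29, and their summed level was 110496 to 233282 TPM over WT mice and 106227 to 330611 TPM over KO mice, so the groups overlapped.

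The machinery that builds the ribosome also had 0 genes past the threshold, against 0.0372% of all genes. Over all genes 46.8% of the fitted differences were above zero, with a median of -0.01. Of 43 tested assembly factors, 15 were above zero and 28 below, with a median of -0.03, and Utp20, part of the small subunit processome, averaged 6.59 ± 1.04 TPM in WT against 8.28 ± 0.771 TPM in KO. Of 12 tested genes of RNA polymerase I and its factors 3 were above zero and 9 below, with a median of -0.03. Among 15 mTORC1 and TOP regulators 8 were above zero and 7 below, with a median of 0.01, and Tsc1, an inhibitor of mTORC1, averaged 1.37 ± 1.59 and 3.13 ± 0.869 TPM while Mtor itself averaged 4.08 ± 0.568 and 4.64 ± 0.325 TPM. Among 12 genes of p53 and its targets, which respond when ribosome assembly fails, 7 were above zero and 5 below, with a median of 0.02. The ribosome of the mitochondrion is built from other genes: 26 of 72 tested were above zero and 46 below, with a median of -0.03. Of the 72, 4 had an unadjusted limma p below 0.05, against 3.1% of all genes. Mrps12, with the smallest p of that list, averaged 50.6 ± 2.46 TPM in WT against 42.3 ± 2.85 TPM in KO. The difference was -0.24 ± 0.07, with an adjusted p of 1.00 by limma with Benjamini-Hochberg adjustment. Its groups, 47.3 to 53.4 TPM in WT and 39.1 to 44.9 TPM in KO, did not overlap, which held for 0.223% of all genes.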

How the data were processed

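Polyadenylated RNA of distal colon was measured in 11 mice, grouped by genotype and cage per the labels. The submitters' processing notes name CASAVA, kallisto, sleuth and the build mm10, without versions, and no source used here describes the settings. Per the file headers, the authors deposited 1 table of principal transcripts with TPM per mouse, sleuth's p-value and q-value, a log2 ratio of KO to WT, the mean natural log of the estimated count, and other scores of that fit. The table keeps no sequencing depth. Of its 29213 rows, 405 repeats were dropped, leaving 28808 transcripts; TPM was summed per gene.

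Tested genes had at least 1 TPM in at least 5 mice. limma 3.58.1 (R 4.3.3) with a mean-variance trend was fitted to log2(TPM + 0.5) of all 10756 genes, with cage and genotype as terms, and tested on simulated data. A log2 fold change on this scale understates changes of low genes. Benjamini-Hochberg adjustment was over all tested genes at 0.05. Cage and interaction were tested with F tests. Over the members, sums, counts and medians carry no p. Positions and 31-base runs come from GENCODE M21 and starts from RefSeq.

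The members and lists were chosen with earlier results of these data known. Members named in the text were the 8, 4 and 4 with the smallest genotype, cage and interaction p, the 5 highest and 5 lowest, the 3 steadiest and 3 most variable, those on chromosome 9, paralogs, and the listed genes with the smallest p; others were chosen after their values were seen. Rps4l and Rpl10a were not analysed here. Some genes that the rule names are not reported here. The alternatives were other pseudocounts, filters, scalings and model settings, the highest transcript in place of the sum, and leaving out each mouse.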

Additional observations from a re-analysis of the deposited data

Results flagged for a closer look

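In groups of 5 or 6 mice, 6 of 86 groups of values examined had 1 mouse far from the others of its genotype, by a rule that chance alone meets in about 1 in 20 groups. KO-8 was the high mouse for Rpl41, at 4207 TPM against 3208 to 3496 TPM in the other KO mice, and for Rps14, at 2298 TPM against 1996 to 2067 TPM. KO-1 was the low mouse for Rpl36a, at 627 TPM against 795 to 834 TPM. KO-9 was the single KO mouse with Rpl39l, at 0.297 TPM, and the rule always flags a single value above 0 among zeros. The 86 also include groups at 0 TPM in every mouse, those of Rpl3l and Rpl10l and the WT group of Rpl39l. The rule could not flag these, so the rate of 1 in 20 does not hold for either kind. For the transcript Rpl29-202, KO-1 was at 91.3 TPM and the other KO mice at 0.140 TPM or less. Among WT mice, WT-2 had the highest share of ribosomal protein TPM in the listed TPM without mitochondrially encoded genes, 18.3% against 15.0% to 16.1%.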

How the results depend on the processing

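No ribosomal protein gene passed the genotype test in any of 22 alternative settings of the gene and transcript fits, with 0 to 3 at an unadjusted p below 0.05 and a smallest adjusted p of 0.572, reached without KO-8. The cage and interaction tests called 0 in all 21 settings each, with 0 to 13 and 0 to 16 at an unadjusted p below 0.05 and smallest adjusted p-values of 0.277 and 0.464. In the limma fit of all mice, 3.1%, 12.1% and 3.97% of all genes had an unadjusted p below 0.05 for genotype, cage and interaction. The highest member counts came when a mouse was left out. Shares over all genes were not counted there, so those counts are not a result about the set. The median difference of the set was 0.01 to 0.04 under other settings and -0.05 to 0.04 when each mouse was left out, with the sign turning without WT-5, WT-11 or KO-8. The log2 ratio of the summed TPM, KO over WT, stayed between -0.05 and 0.03 throughout. Of 53 named genes, 35 kept one sign in every setting and 18 did not. No paired analysis was possible because the genotypes share no mouse numbers; cage was held as a term. With 5 and 6 mice, differences smaller than the intervals given were not detectable. TPM without counts gives no precision per mouse, and the authors' technical variance is pooled over the mice. Among genes below 20 TPM it was 0.585 for Rps26, 0.279 for Rpl37, 0.0183 for Rpl35 and 0.00158 for Rps20. The median over the ribosomal protein transcripts was 0.00229.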

Other observations

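Some ribosomal protein genes went against the rest of the set within a mouse, and these were picked out after their values were seen. Relative to the median deviation of the set in KO-8, Rpl23a was at -1.05 on the log2 scale, Rps27 at -0.68, Rplp0, the scaffold of the stalk, at -0.53, Rpl7l1 at -0.48 and Rps15 at -0.46. In the same mouse Rpl35 was at 0.64, Rps28 at 0.64, Rpl24 at 0.61 and Rpl7 at 0.50. KO-9 differed from KO-8 in several of them, with Rpl23a at 0.49, Rps27 at 0.39 and Rpl7 at -0.45. In TPM, Rplp0 was 1041 in KO-8 and 1608 in KO-9, against 1199 to 1500.5 in WT, and Rps28 was 2504 in KO-8 and 1679 in KO-9, against 1044 to 1823 in WT. Rps15 was at 1170 TPM in KO-8 and 1726 TPM in KO-9, against 1288 to 1613 TPM in WT. Rps7 was low in KO-1, at 301 TPM, and high in KO-8, at 716 TPM, against 495 to 593 TPM in WT. These 4 genes had KO mice both above and below the whole WT range, except Rps28, whose KO mice were within or above it.

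Rps26 and Rpl37, both below 20 TPM, varied most between mice. Their technical variance was 0.585 and 0.279, against a median of 0.00229 over the ribosomal protein transcripts. The part of it in this spread was not tested. Rps26, a small subunit protein near the exit of the messenger RNA channel, was at 1.99 TPM in the lowest WT mouse, 6.26 at the WT median and 11.3 in the highest, and at 4.81, 8.21, 3.83, 6.42 and 4.45 TPM in KO-1, KO-3, KO-4, KO-8 and KO-9. The KO values all lay inside the WT range.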
